A study of Mus musculus and Homo sapiens with 10 samples.

Results

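The globin genes of the mouse encode the protein chains of haemoglobin, the oxygen carrier of red blood cells, and lie in 2 loci: the beta locus on chromosome 7 and the alpha locus on chromosome 11. The 7 genes described here, 4 of the beta locus (Hbb-bt, Hbb-bs, Hbb-bh1 and Hbb-y) and 3 of the alpha locus (Hba-x, Hba-a1 and Hba-a2), were chosen by name from 21523 annotated protein-coding genes on chromosomes 1 to 19 and X. All 7 were found in the annotation. Of all protein-coding genes, 28.9% had their midpoint in a lamina-associated domain (LAD, a stretch of chromatin that touches the protein mesh under the nuclear envelope) by Nanopore sequencing and 25.4% by Illumina sequencing. In LADs of both lists lay 24.7% and in neither list 70.4%.

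LADs were mapped by DamID, in which a protein fused to the bacterial methyltransferase Dam leaves methyl marks on nearby GATC sites. In N2A cells, a mouse neuroblastoma line, the fusion LaminB1-Dam was read on Nanopore instruments in 1 sample and on Illumina instruments in 2 samples, after induction with doxycycline at 2 µg/mL. A further Nanopore sample is labelled 10% LaminB1-Dam, and the N2A line also gave Dam alone by each method and a wild-type sample; 3 samples of HEK293T cells, a human line, were not used here. The values were 2 deposited consensus lists of LADs, 1174 by Nanopore and 1149 by Illumina on these chromosomes. The lists give interval borders on a grid of 20 kb, with no value per sample, so depth and replicate spread are unknown and nothing below carries a test. The labels do not say whether the line is 1 clone, and the lists hold no expression values against which the labelled cell type could be checked.

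A haemoglobin molecule joins alpha-like with beta-like chains, and the genes of each locus are switched in order during development. Hbb-y, Hbb-bh1 and Hba-x are the embryonic genes, used by primitive red cells, while Hbb-bs, Hbb-bt, Hba-a1 and Hba-a2 encode the adult chains. Distant enhancers drive both loci in red cells: the locus control region beside Hbb-y at the beta locus, and elements within introns of Nprl3 at the alpha locus. The beta locus is known for its place inside an array of olfactory receptor genes, and the alpha locus for its place among genes that many tissues use.

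The promoters below are shown because both loci answer to the same erythroid factors through short boxes, and because GATC is the site that Dam marks. Each is the run of 150 bases just before the annotated start, 5′ to 3′ on the gene's strand, from RefSeq on GRCm38.p6, the assembly behind mm10. Capitals mark CACCC (the box bound by Klf1), the CCAAT box, the GATC site and 3 boxes of the TATA type (TATAAA, the variant ATAAAA and the variant ATATAA), each searched on both strands.
Hbb-bt, chr7:103813924-103814073, minus strand: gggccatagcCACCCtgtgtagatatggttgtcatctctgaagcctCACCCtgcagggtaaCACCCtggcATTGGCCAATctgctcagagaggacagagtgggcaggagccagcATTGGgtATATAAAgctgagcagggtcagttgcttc
Hbb-bs, chr7:103827929-103828078, minus strand: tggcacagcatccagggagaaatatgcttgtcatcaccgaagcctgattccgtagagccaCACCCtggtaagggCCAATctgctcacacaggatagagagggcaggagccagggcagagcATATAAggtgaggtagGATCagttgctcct
Hbb-y, chr7:103853208-103853357, minus strand: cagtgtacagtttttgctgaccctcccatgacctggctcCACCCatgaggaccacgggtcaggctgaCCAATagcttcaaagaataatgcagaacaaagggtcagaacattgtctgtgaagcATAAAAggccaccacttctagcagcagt
Hba-x, chr11:32276450-32276599, plus strand: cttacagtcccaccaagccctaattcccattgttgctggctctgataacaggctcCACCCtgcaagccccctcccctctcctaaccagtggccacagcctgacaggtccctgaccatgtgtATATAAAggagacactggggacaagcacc
Hba-a1, chr11:32283522-32283671, plus strand: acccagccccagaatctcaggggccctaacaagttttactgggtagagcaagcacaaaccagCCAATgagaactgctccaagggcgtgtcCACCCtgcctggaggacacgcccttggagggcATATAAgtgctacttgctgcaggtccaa
The Hba-a2 promoter is not printed because it repeats that of Hba-a1, with 297 of 297 bases identical over the windows of 300 bases at an offset of 3. Hbb-bh1 was not in the promoter table used here.

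All 4 beta globin genes lay in LADs of both lists, and all 3 alpha globin genes lay in neither. The beta genes span 40.7 kb (chromosome 7, 103812524 to 103853207, mm10), and 100% of that span was in a LAD by either method. The alpha genes span 20.7 kb (chromosome 11, 32276600 to 32297310), and 0% was in a LAD by either method. No member's status differed between methods. Members of a locus are neighbours within the same domain, so each locus counts as 1 observation and not as 3 or 4.

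**Figure D1:**
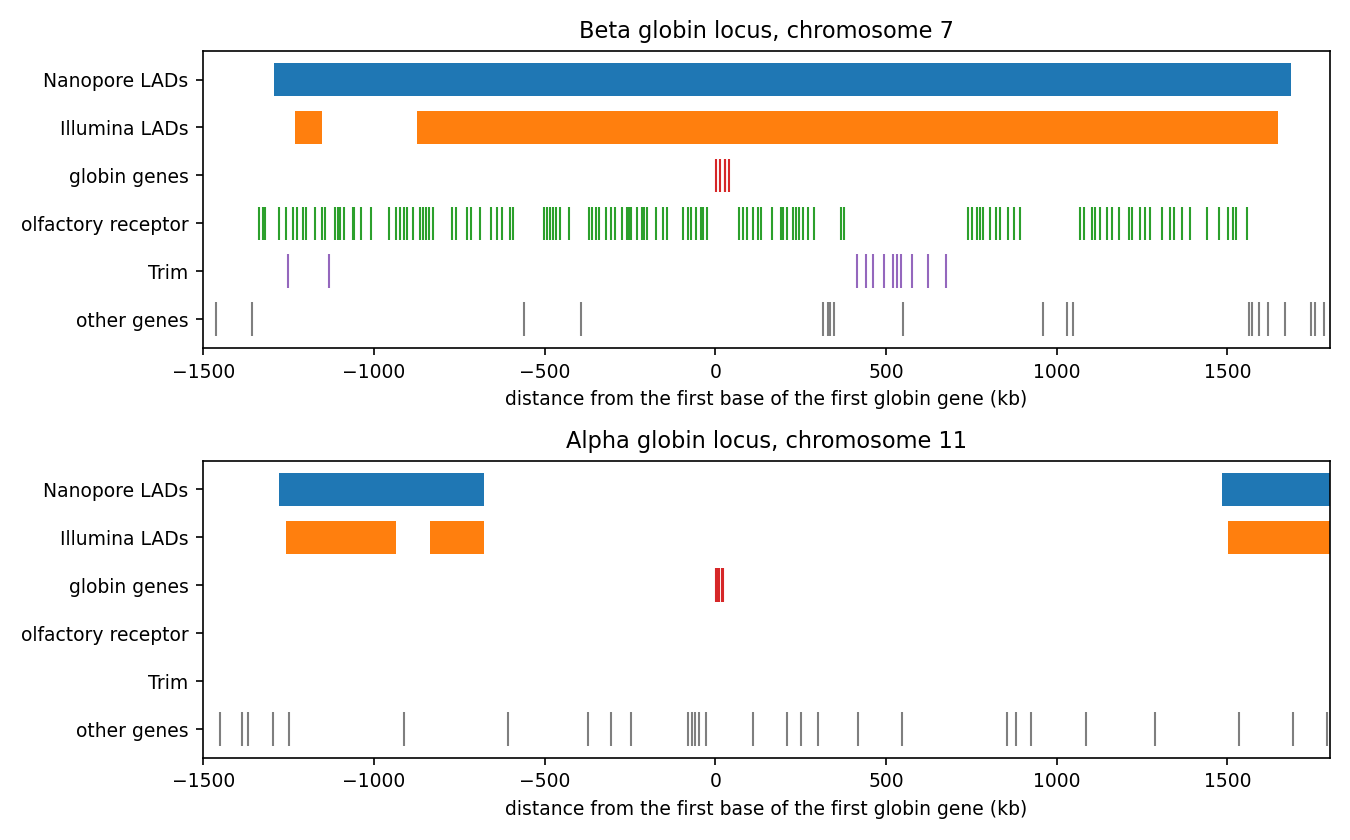
LADs and protein-coding genes around each globin locus; the x axis is the distance in kb from the first base of the first globin gene, bars are LADs of each list and ticks are gene midpoints by class. The beta globin genes sit inside a LAD of 2.98 Mb (Nanopore) or 2.52 Mb (Illumina) filled with olfactory receptor genes, and the alpha globin genes sit in a gap of 2.16 or 2.18 Mb between LADs.

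The beta locus lay deep inside its domain. By Nanopore the host LAD ran from 102520001 to 105500000 of chromosome 7, a width of 2.98 Mb, and by Illumina from 102940001 to 105460000, a width of 2.52 Mb. Hbb-bt (103812524 to 103813923), an adult gene, was the member nearest a border, at 1293.2 kb from the left border by Nanopore and 873.2 kb by Illumina. Hbb-bs (103826523 to 103827928), the other adult gene, was 1307.2 and 887.2 kb inside. Both adult genes were thus many grid steps away from any border in either list.

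The embryonic genes Hbb-bh1 (103841638 to 103843162) and Hbb-y (103851754 to 103853207) lay 1322.4 and 1332.5 kb inside by Nanopore, and 902.4 and 912.5 kb inside by Illumina. The order of depth simply follows the map order of the 4 genes. Adult and embryonic genes therefore shared a single domain. The stretch of 28.1 kb between Hbb-y and the next gene, Olfr66, on the side of the locus control region, was 100% in a LAD by both methods. The remaining beta-like genes of the cluster, Hbb-bh2 and the pseudogene Hbb-bh3, were in LADs of both lists too.

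The alpha locus lay far from any LAD. The gap that held it began at 31600001 of chromosome 11 in both lists and ended at 33760000 by Nanopore and 33780000 by Illumina, 1 grid step apart. Hba-x (32276600 to 32278116), the embryonic zeta-like gene, was 677.4 kb from the nearest LAD by both methods, which was the one on its left. The adult genes Hba-a1 (32283672 to 32284486) and Hba-a2 (32296492 to 32297310) were 684.1 and 696.9 kb from it. On the right, the distance from Hba-a2 to the next LAD was 1463.1 kb by Nanopore and 1483.1 kb by Illumina. Hbq1b and Hbq1a, theta-like globin genes between and after the adult genes, were in neither list. Nprl3, a gene for a regulator of the growth kinase mTORC1 and the seat of the alpha enhancers, had 0% of its 35.7 kb in a LAD of either list. Hba-a1 and Hba-a2 are near-identical copies, so reads within them may not be told apart, and how such reads were treated is unknown. The gap around both genes is much wider than either gene.

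Both hosts were wide for their kind when each LAD or gap was counted once. Wide intervals hold more sequence, so these ranks do not show that either width was unusual for the host of a gene. The beta host was wider than 89.1% of Nanopore LADs, whose median was 0.69 Mb, and than 87.6% of Illumina LADs, whose median was 0.66 Mb. On chromosome 7 it ranked 5 of 85 by Nanopore and 6 of 88 by Illumina. The alpha host was wider than 88.3% of gaps between Nanopore LADs (median 0.44 Mb) and 86.5% of gaps between Illumina LADs (median 0.42 Mb), and ranked 11 of 45 and 12 of 47 on chromosome 11. LADs covered 55.4% and 52.3% of chromosome 7 and 44.8% and 41.5% of chromosome 11 by Nanopore and Illumina.

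The beta host was full of genes, while LADs as a rule hold few: among the 457 Nanopore LADs of at least 1 Mb the median was 2.34 protein-coding genes per Mb, and among 412 Illumina LADs it was 1.92. The beta host had 155 protein-coding genes by Nanopore, or 52.0 per Mb, and 129 by Illumina, or 51.2 per Mb. In both lists no LAD of at least 1 Mb was denser, and the next had 43.6 per Mb by Nanopore and 44.1 per Mb by Illumina. Denser LADs did occur among narrower ones, 3 by Nanopore, of at most 0.94 Mb, and 5 by Illumina, of at most 0.66 Mb. These ranks are a description of the lists, with no test.

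**Figure D2:**
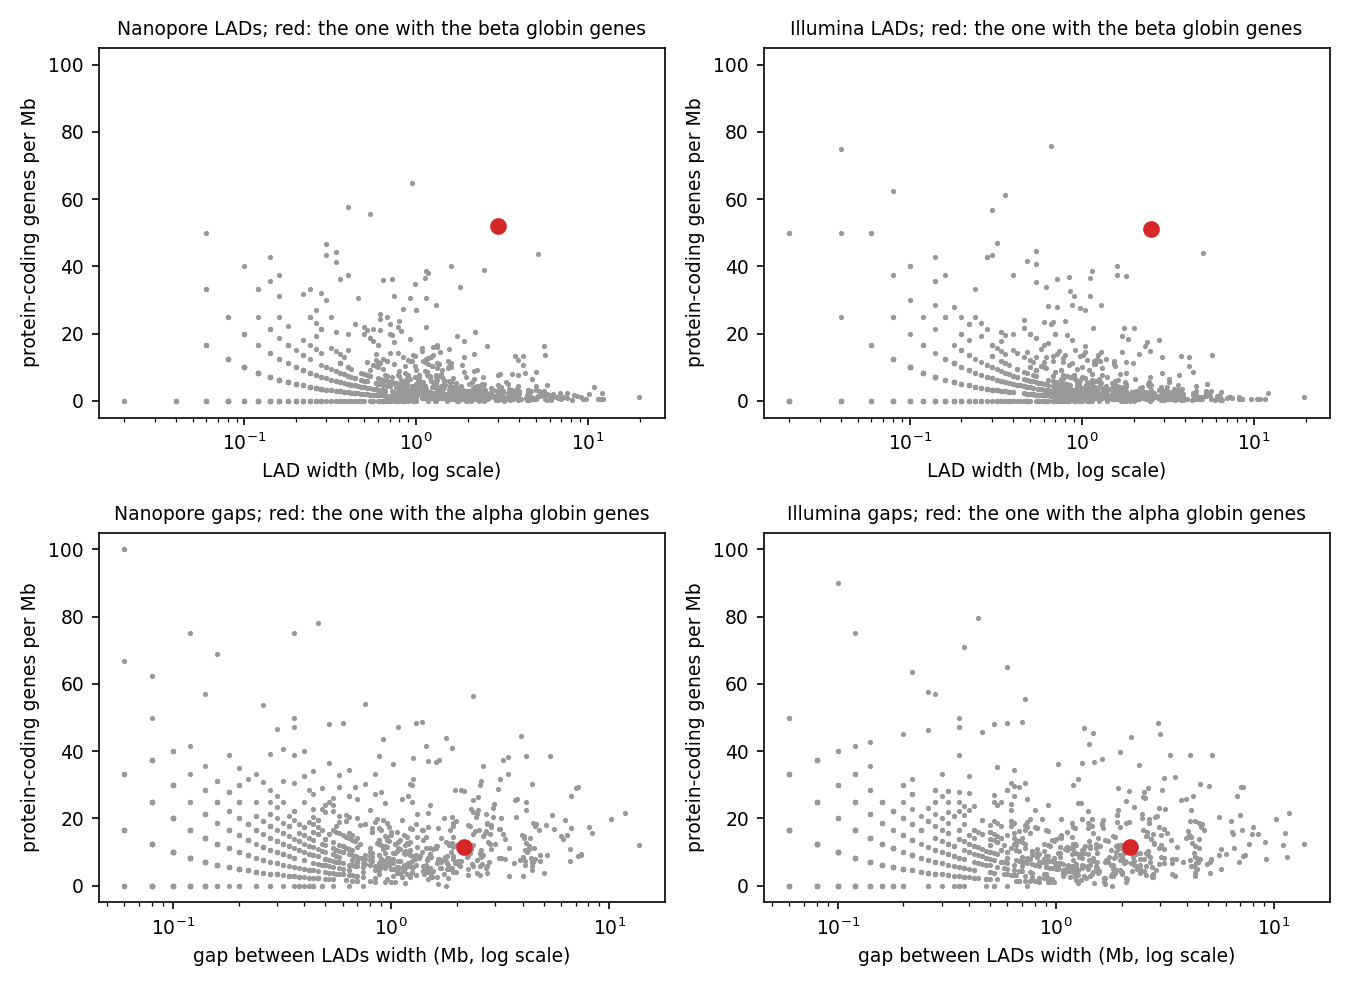
Width on a log scale against protein-coding genes per Mb for every LAD (top) and every gap between LADs (bottom) in the Nanopore and Illumina lists; the red point is the interval with the globin genes. The beta host stands at 52.0 and 51.2 genes per Mb, above all other LADs of at least 1 Mb, while the alpha host, at 11.6 and 11.5 per Mb, lies among the other gaps.

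Olfactory receptor genes made up most of that density. Of the 155 genes in the Nanopore host 123 were olfactory receptor genes, 12 were Trim genes, 5 were beta-like globin genes and 15 were others; in the Illumina host the numbers were 100, 10, 5 and 14. Without olfactory receptor genes the host kept 10.7 genes per Mb by Nanopore and 11.5 by Illumina. The medians of LADs of at least 1 Mb, counted the same way, were 2.22 and 1.82 per Mb. By that count 33 Nanopore and 26 Illumina LADs of this width were denser. The olfactory receptor genes of the host are part of the class I array of chromosome 7. Of all 239 olfactory receptor genes on that chromosome, in the array or not, Nanopore LADs held 233 and Illumina LADs 214. Across all chromosomes used, Nanopore LADs held 1038 of 1109 olfactory receptor genes, and Illumina LADs held 1005. A high share inside LADs was thus not particular to chromosome 7.

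The alpha host had 25 protein-coding genes by either list, among them 5 globin genes and no olfactory receptor or Trim gene. Its density, 11.6 per Mb by Nanopore and 11.5 by Illumina, was close to the median of gaps of at least 1 Mb, 10.7 and 9.80 per Mb, and 141 of 315 Nanopore gaps and 146 of 345 Illumina gaps of that width were denser. Per Mb, the LAD around the beta locus thus held more protein-coding genes than the gap around the alpha locus in both lists.

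At close range each locus shared its status with every neighbour. This follows from the host borders, as each host extends more than 500 kb beyond its globin genes on both sides. Within 500 kb on each side of the beta locus, LAD coverage was 100% by both methods, and all 61 other protein-coding genes were in LADs of both lists. They were 49 olfactory receptor genes, 6 Trim genes, Hbb-bh2 and 5 others. On the left, the nearest genes were Olfr67, 20.7 kb away, then Olfr68, Olfr69, Olfr630 and Olfr629. On the right they were Olfr66, 28.1 kb away, then Olfr64, Olfr65, Olfr631 and Olfr632. Olfactory receptor genes encode odorant receptors used in the nose, so the beta globin genes are flanked on both sides by genes of another tissue. Farther right came Ubqln5 and Ubqlnl, of the ubiquilin family, and Trim6, Trim34a and Trim5, of a family with roles in defence against viruses. The window also held 16 pseudogenes, 10 of them of olfactory receptor genes, all in LADs of both lists.

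Within 500 kb of the alpha locus, LAD coverage was 0% by both methods, and all 15 other protein-coding genes were in neither list. The nearest on the left were Nprl3, 8.9 kb away, the DNA repair gene Mpg, Rhbdf1, the splicing gene Snrnp25 and the interleukin receptor gene Il9r. On the right followed Hbq1a, Sh3pxd2b, Ubtd2, Efcab9 and the kinase gene Stk10. A further 8 long non-coding RNA genes and 6 pseudogenes in this window were likewise outside LADs. Protein-coding neighbours numbered 58.6 per Mb around the beta locus and 14.7 per Mb around the alpha locus.

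In gene order the runs restate the gene content of the hosts, except for the Illumina run at the alpha locus, and are no separate result. Counting outward from the beta genes, 155 protein-coding genes in a row were in LADs by Nanopore, from Olfr547 to Cavin3, and 129 by Illumina, from Olfr574 to Cckbr. Around the alpha genes 25 genes in a row were outside LADs by Nanopore, from Bod1 to Gabrp, and 26 by Illumina, where the run began at Stc2. Stc2 lies outside the alpha gap, beyond an Illumina LAD of 160 kb that holds no protein-coding gene midpoint. Kcnip1, a potassium channel partner, was the first gene in a LAD to the right of the alpha locus in both lists.

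The methods differed at the edges of the beta host, not at the globin genes. On the left, a Nanopore-only stretch of 280 kb (102660001 to 102940000) held 16 genes, 15 of them olfactory receptor genes and the other Trim68. It was followed outward by 80 kb (102580001 to 102660000) in a LAD of both lists, with Olfr551 to Olfr555, and then by 60 kb (102520001 to 102580000) by Nanopore only, with Olfr547, Olfr549, Trim21 and Olfr550. On the right, 40 kb by Nanopore only (105460001 to 105500000) held Cavin3. No part of the host was in an Illumina LAD only. At the alpha host the lists differed by 20 kb (33760001 to 33780000), in a LAD by Nanopore only, with no protein-coding gene midpoint.

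Farther left of the alpha gap, the Nanopore list had a single LAD of 600 kb, 31000001 to 31600000. The Illumina list had 2 LADs there, of 320 kb and 160 kb, the latter with the same right border. That shared border faces the alpha globin genes.

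The other genes of red cell biology did not follow the beta locus as a group. A list of 72 genes in 7 subgroups was set up, of which 70 had a place in the annotation, while Ahsp and Hbb-bh0 were not analysed here. In LADs of both lists were 12 of 70, or 17.1%, and 58 were in neither; no gene was in a LAD of a single list. Over all protein-coding genes the shares were 24.7% and 70.4%. Subgroups lay on both sides of 24.7%, from 0% of haem synthesis genes to 43.8% of membrane and enzyme genes and 50% of the 4 signal genes. The list has no test, and 9 of its genes lie in the 2 globin hosts themselves: Hbb-bh2, Hbb-bh3, Hbq1a, Hbq1b and the 5 genes left of Hba-x.

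**Figure D3:**
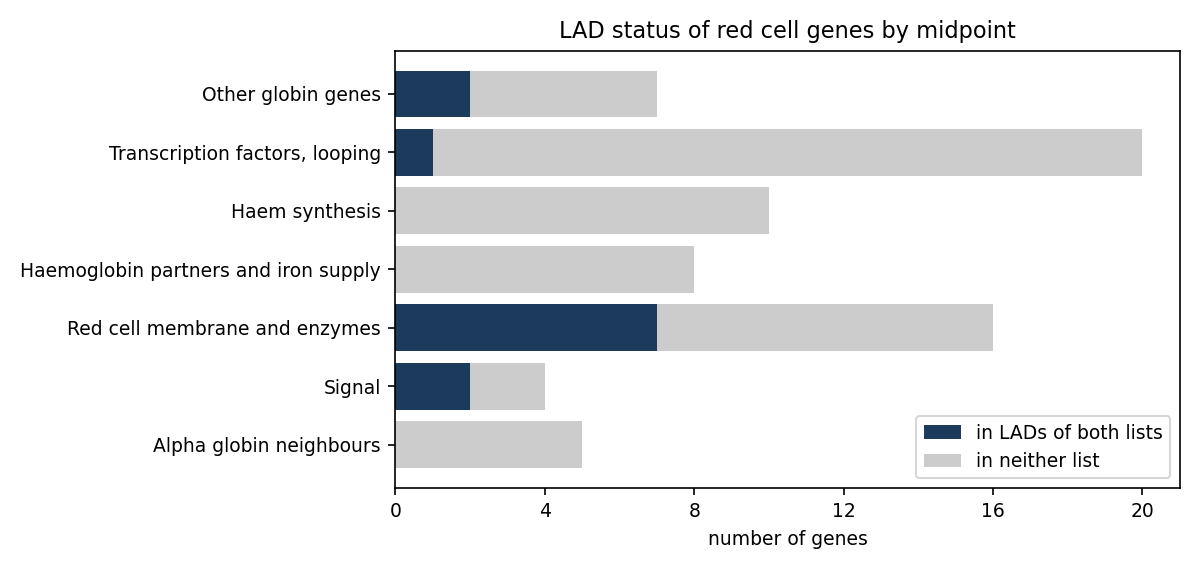
Number of red cell genes in LADs of both lists and in neither list, by subgroup, placed by gene midpoint. Genes inside LADs were found among other globin genes (2 of 7), transcription factors (1 of 20), membrane proteins and enzymes (7 of 16) and signal genes (2 of 4), and none among the other 3 subgroups.

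Of 20 genes for transcription factors and looping proteins that act at globin genes, 19 were in neither list. Among them were Gata1 and Gata2, which encode GATA factors of blood cells, Klf1, the factor that binds the CACCC box of beta globin, and Tal1, a partner of the GATA factors. The exception was Ikzf1 (chromosome 11, 11684962 to 11772930), which encodes the lymphoid factor Ikaros, whose midpoint lay 11.1 kb inside a Nanopore LAD and 31.1 kb inside an Illumina LAD. A border crossed this gene, with 62.6% of its length in the LAD by Nanopore and 85.3% by Illumina. Tal1 was close to LADs as well, in a gap of 0.2 Mb with the nearest border at 35.9 kb in both lists. Bach1 was in a gap of 0.08 Mb by Nanopore, with a border at 36.1 kb. By Illumina its gap was 0.82 Mb, with the nearest border at 376.1 kb.

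Haem, the iron-bearing group that globin chains hold, is made by a chain of enzymes. All 10 genes of that list were in neither list of LADs, among them Alas1, the first enzyme in most tissues, Alas2, its red cell counterpart, and Alad. The 8 matched genes for haemoglobin partners and iron supply were outside too, among them Tfrc, the transferrin receptor, and the iron carriers Slc25a37 and Slc11a2. Hpx, which encodes the haem scavenger haemopexin (chromosome 7, 105591611 to 105600116; named after its value was seen), lay in the gap next to the right border of the beta host, 95.9 kb from a LAD by Nanopore and 135.9 kb by Illumina.

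Of 16 red cell membrane and enzyme genes, 7 were inside and 9 outside. The 43.8% inside was above the 24.7% of all protein-coding genes in LADs of both lists, with no test. Among those inside was Rhag, a Rhesus-associated glycoprotein gene, in a LAD of 5.66 Mb by Nanopore and 5.68 Mb by Illumina. Rhag was 1932.4 kb from a border by Nanopore and 1952.4 kb by Illumina, farther inside than the beta globin genes. Gypc, for a glycophorin, Kel, for a blood group antigen, and the carbonic anhydrase genes Car1 and Car2 were also inside, the last pair in a single LAD of 0.98 Mb by Nanopore and 1.00 Mb by Illumina. Outside were Sptb, Epb41, Epb42 and Ank1, genes of the membrane skeleton. Of the signal genes, Kit, for the stem cell factor receptor, and Kitl, for its ligand, were inside, and Epo and Epor, for erythropoietin and its receptor, outside.

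Globins of other tissues were outside LADs in both lists. Mb, for the myoglobin of muscle, lay in a gap of 7.04 Mb in both lists, Ngb, for the neuroglobin of nerve cells, in gaps of 4.54 and 4.64 Mb, and Cygb, for cytoglobin, in gaps of 6.66 and 6.78 Mb. Each of these gaps was wider than that of the alpha locus. Among the globin genes matched by name, then, those in LADs of both lists were the ones of the beta cluster.

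The promoter windows ran from 250 bases before to 50 after the start, and the background was 32619 windows of 26794 genes. GC content was 46.0% for Hbb-bt, 49.7% for Hbb-bs and 43.3% for Hbb-y, and 57.3% for Hba-x and 53.3% for Hba-a1 and Hba-a2. The globin genes beside them had 45.7% (Hbb-bh2), 51.3% (Hbq1b) and 49.3% (Hbq1a). The median of all windows was 53.0%, with 45.7% for starts in LADs of both lists and 56.0% for starts in neither. The windows of the 3 beta members were thus below the overall median. Of the alpha members, Hba-x was above it. Hba-a1 and Hba-a2, whose windows repeat each other, were only just above it, with 51.0% of all windows lower. Both were below the median of starts in neither list. With Hbq1a and Hbq1b, both below the overall median, the loci overlapped.

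Members of both loci had fewer CpG dinucleotides than the median of all windows, which was 7. Hbb-bt and Hbb-y had 1 CpG each, Hbb-bs and Hba-x had 2, and Hba-a1 and Hba-a2 had 4. A count of 4 was not rare, as 31.0% of all windows had fewer and 37.7% had as many or fewer. Of the other globin genes, Hbb-bh2 had 4, Hbq1a 8 and Hbq1b 13. The median was 3 for starts in LADs of both lists and 12 for starts in neither, so the 3 alpha members, though outside LADs, were below the median of starts outside LADs, as was Hbq1a, while Hbq1b was above it. Most of their neighbours had more CpG than the members. The 13 windows of alpha neighbours within 500 kb, globin genes left out, had a median of 22 CpG, from 2 to 42, and 11 of them had 10 or more. The 54 windows of beta neighbours had a median of 1 and at most 8. Their median GC content was 40.2%, against 62.3% at the alpha locus.

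**Figure D4:**
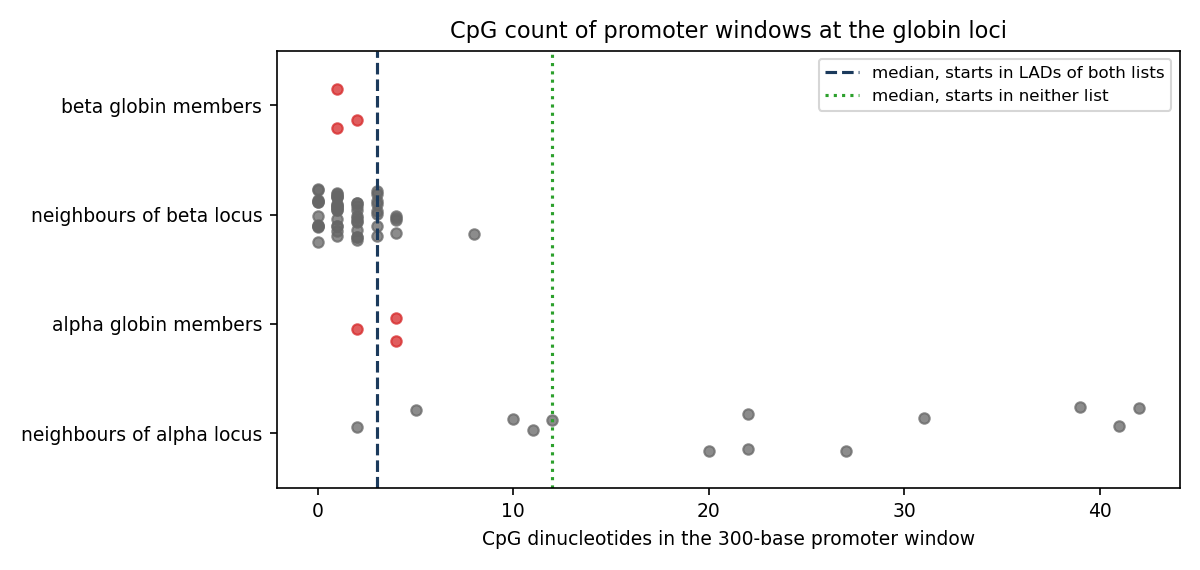
CpG dinucleotides in the promoter windows of the 6 members with a window (red) and of neighbours within 500 kb (grey). Each grey point is a window, 54 at the beta locus and 13, of 12 genes, at the alpha locus. Neighbours with no window are not plotted, nor are Hbb-bh2, Hbq1a and Hbq1b. Dashed and dotted lines are the medians of starts in LADs of both lists (3) and in neither (12). Points are spread vertically for view only. The 6 members have 1 to 4 CpG, beta neighbours at most 8, and alpha neighbours mostly 10 or more.

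In the windows of 300 bases CACCC was found in all 6 members with a window: 3 matches in Hbb-bt, 1 each in Hbb-bs and Hbb-y and 2 in each alpha gene. Of all windows, 57.7% held it, as did 35.2% of beta neighbours' and 76.9% of alpha neighbours' windows. The windows of Hbb-bh2, Hbq1b and Hbq1a held no CACCC. Hba-a1 and Hba-a2 repeat each other, so the 6 windows are not 6 separate observations. CCAAT was found in 5 of the 6, all but Hba-x, and in 37.6% of all windows. Hbq1b and Hbq1a held it too, and Hbb-bh2 did not. In Hbb-bs the CACCC match lay at -90 to -86 and the CCAAT match at -76 to -72, counted from the start with the base before it as -1. GATA on either strand was found in all 6 and in 57.7% of all windows. It was also in the windows of Hbb-bh2, Hbq1b and Hbq1a. Among neighbours, 87.0% of windows at the beta locus and 30.8% at the alpha locus held it. TATAAA was found in Hbb-bt and Hba-x (13.7% of all windows), ATAAAA in Hbb-y (18.4%), and ATATAA, searched after the promoters had been read and overlapping TATAAA in Hbb-bt and Hba-x, in 5 of the 6 (9.86%). Among Hbb-bh2, Hbq1b and Hbq1a, only Hbq1b held a box of the TATA type, ATATAA on the opposite strand. A match is a run of letters and not evidence of binding.

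GATC, the site that Dam methylates, was found once in Hbb-bs, at -14 to -11, and once in Hbb-y, at 25 to 28 bases after the start, and in no other member's window. Of all windows 47.7% held at least 1, with 50.8% for starts in LADs of both lists and 46.3% for starts in neither. Around the loci 53.7% of beta neighbours' windows and 46.2% of alpha neighbours' windows held it. These windows are far shorter than the grid of 20 kb on which LADs were given, so they do not show how many GATC sites lay behind either call.

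Some genes on other chromosomes had nearly the same place as the globin genes by host width and distance to the nearest border in both lists, compared by the sum of absolute log10 differences in these 4 values. For Hbb-bs, among 4698 genes in LADs of both lists, the closest were Nat1, Nat2 and Nat3 on chromosome 8, which encode arylamine acetyltransferases and share a host of 2.98 Mb by Nanopore and 2.52 Mb by Illumina, the same widths as the beta host; their summed differences were 0.094, 0.099 and 0.122. For Hba-a1, among 13455 genes in neither list, they were Thap7, Lztr1 and Tango2 on chromosome 16, with summed differences of 0.011, 0.013 and 0.015. Thap7, Lztr1 and Tango2 lay in the same gap, of 2.16 Mb by both methods.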

How the data were processed

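LaminB1-Dam binding in N2A cells had been profiled by Nanopore and Illumina DamID. The 2 lists of LADs that the authors deposited hold chromosome, start and end, with no score, count or p-value; 1210 Nanopore and 1190 Illumina intervals were deposited, and those on chromosomes 1 to 19 and X were used. All of their borders lay on a 20 kb grid. Per the submitters' processing notes, bedtools, deepTools, minimap2 and SAMtools were used, with mm10 among the builds; no source used here names the domain caller, its settings or the samples that went into a list. Depth is unknown.

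Genes came from a RefSeq annotation of GRCm38.p6 with 49997 rows, leaving out genes listed below 3 Mb, and were placed by midpoint. Neighbours were protein-coding genes within 500 kb of the outermost members. Promoter windows came from RefSeq, and motifs were searched on both strands. Named genes were the members, other globin genes, the 5 nearest neighbours on each side, up to 3 neighbours per class, red cell genes inside LADs with at most 4 per subgroup outside, and the 3 genes most like each locus. Hpx, Cpox, Bach1 and the genes at ends of domains or runs and in stretches of a single list were named after their values were seen. The members and lists were chosen with earlier results of these data known. No test was made, since neither list has replicate values. Interval functions were tested on simulated data. Python 3.11.15, numpy 2.4.6, pandas 2.3.3 and matplotlib 3.10.9 were used. Values of some single genes were left out of the text.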

Additional observations from a re-analysis of the deposited data

How the results depend on the processing

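No count of globin genes in LADs changed when genes were placed by whole length or any overlap, when LADs under 100 kb were left out, when LADs 20 kb or 100 kb apart were merged, or when every LAD was shrunk or widened by 20 kb at each border; by start site, the 3 beta genes with a listed start were inside LADs of both lists and the 3 alpha genes outside. Every member lay at least 677.4 kb from the nearest border of its host, so none of these settings could have moved a member. The unchanged counts thus do not show how firmly the calls were made. The red cell count was 11 with either list when whole length was required, as Ikzf1 crosses a border, and 12 with any overlap. It was not recounted with LADs shrunk or widened. Host widths stayed as given when narrow LADs were left out or near LADs merged. Of 72 alternative values 5 were counted as moved, all with a window of 1 Mb on each side. The red cell count of 11 and the beta count of 3 by start site were not counted as moved. Coverage around the beta locus was then 93.8% by Illumina, and 94.1% of neighbours were in Illumina LADs. Around the alpha locus coverage was 16.0% by Nanopore and 11.1% by Illumina, and 4.76% of neighbours were in Nanopore LADs. No paired analysis was possible because the lists are consensus intervals with no values per sample, and for the same reason no replicate could be left out. Depth, and with it how firmly any border was placed, is unknown.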

Other observations

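The annotation also lists 2 alpha globin pseudogenes on other chromosomes, which had not been part of the lists. Hba-ps3 on chromosome 15 (56171880 to 56172421) lay in a Nanopore LAD of 0.44 Mb (56100001 to 56540000) and in an Illumina gap of 4.94 Mb. Hba-ps4 on chromosome 17 (26286279 to 26287061) lay in neither list, in gaps of 7.18 Mb by Nanopore and 7.20 Mb by Illumina. Hba-ps3 was the only globin gene or pseudogene of those matched by symbol whose status differed between the 2 lists.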
